A study of Mus musculus with 16 samples.

Results

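In mouse testis, 1529 regions carried H3K4me3 in all 3 lines that have H3K4me3 data. Each was cut into several neighbouring peaks in at least 1 line's peak list. Peaks that shared at least 1 bp between the lists were merged into regions on chromosomes 1 to 19. Of 59204 such regions, 34977 held a peak from every list, and 30494 of those were wider than 800 bp and narrower than 4000 bp. The 1529 split regions were those in which at least 1 list contributed 2 or more peaks, which is 5.01 percent of the 30494 (95% Wilson interval 4.77 to 5.26 percent). The regions were chosen by the peak intervals of the same lists, so counts of splits below are a description with no test.

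The study compared H3K4me3 and the recombinase DMC1 by chromatin immunoprecipitation and sequencing (ChIP-seq) in whole testis. It holds 16 samples, of which 6 are H3K4me3 ChIP libraries, 3 are inputs and 7 are DMC1 libraries. Each of the 3 lines with H3K4me3 data had 2 H3K4me3 libraries and 1 input. A single deposited peak list stands for both libraries. The DMC1 libraries, some of them labelled KO-TgWT or KO-TgYF, were not analysed here.

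B6 was the inbred strain C57BL/6JOlaHsd. B6-TgWT was C57BL/6J-Tg(RP23-159N6*)43Bdm, and B6-TgYF was C57BL/6JRj-Tg(RP23-159N6*)23Bdm. RP23-159N6 is a bacterial artificial chromosome that was put into the mouse genome. As background from the study's known design, both transgenes encode PRDM9 with a zinc finger array of another specificity, and the TgYF protein lacks methyltransferase activity. The strain names list no deletion of the resident Prdm9 gene in any of these 3 lines. All 3 lines were sampled at 13 days post-partum per the labels, and the name of the B6 list carries a d with 12. The antibody was Abcam ab8580 against H3K4me3 in every H3K4me3 ChIP. Each transgenic line descends from 1 insertion name and another C57BL/6 substrain than B6, so a difference between lists cannot be told apart from a difference between substrains.

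H3K4me3, trimethylation of lysine 4 of histone H3, marks the nucleosomes on both sides of active gene start sites. In meiotic cells PRDM9 also writes it around the DNA sites that its zinc fingers bind, where meiotic double-strand breaks then form. The bound or transcribed centre of such a site is often free of nucleosomes, so the signal commonly has a flank on each side with a dip between them. A peak caller joins enriched stretches that lie closer than a set distance and reports them as separate peaks when they lie further apart. The same stretch of chromatin can then appear as a single peak in a list and as several in another.

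The 3 lists held 46631 peaks in B6-TgWT, 41558 in B6-TgYF and 50013 in B6 on chromosomes 1 to 19. In the order B6-TgWT, B6-TgYF and B6, median peak widths were 1212, 1170 and 1108 bp. The median fold enrichments over background, as the authors deposited them, were 6.81, 7.52 and 7.72. Peaks inside split regions made up 3.43 percent of the B6 list, 5.57 percent of the B6-TgWT list and 5.83 percent of the B6-TgYF list. In each list the narrowest distance between any neighbouring peaks was 51 bp. The lists hold no read counts, so the depth of the libraries behind them is unknown. With 1 list per line there is no replicate check. The intervals below cover counting error over regions, which are not replicates of a line, and a fold in a list is read only against other peaks of that list.

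The splits were mostly those of the transgenic lines' lists. B6-TgWT cut 1045 of the 1529 regions, or 68.3 percent (66.0 to 70.6), and B6-TgYF cut 876, or 57.3 percent (54.8 to 59.8). B6 cut 185, or 12.1 percent (10.6 to 13.8). Over all 30494 shared regions of that width, the share that a list cut was 0.607 percent for B6, 3.43 percent for B6-TgWT and 2.87 percent for B6-TgYF. The 3 lists share the same regions and each line has 1 list, so the difference between these shares was not tested. These counts leave out cuts that all 3 lists make at the same place, which the rule turns into separate regions. Such cuts would add to the count of every list, so the contrast between lists holds only for the regions counted here.

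Most split regions were cut by 1 list, with a single peak in each of the others. Exactly 1 list split 977 regions (63.9 percent), 2 lists split 527 (34.5 percent) and all 3 lists split 25 (1.64 percent). The rule keeps that last class small, because a cut that all 3 lists make at the same place leaves separate regions. B6-TgWT alone cut 522 regions, B6-TgYF alone 359, and these 2 lists together 463. B6 alone cut 96, B6 with B6-TgWT 35, and B6 with B6-TgYF 29. In number, the transgenic lists thus shared far more splits with each other than either shared with B6, which cut the fewest regions.

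That sharing was well above each list's own split share. Of the 1045 regions cut by B6-TgWT, B6-TgYF cut 46.7 percent (43.7 to 49.7), while it cut 1.32 percent of the 29449 regions where B6-TgWT had a single peak. Of the 876 regions cut by B6-TgYF, B6-TgWT cut 55.7 percent, against 1.88 percent of those where B6-TgYF had a single peak. B6 cut 5.74 percent of the B6-TgWT splits and 6.16 percent of the B6-TgYF splits, against 0.607 percent of all 30494 shared regions of that width. These shares have no test, because the rule that chose the regions used the same splits, and width, which differs between split and unsplit regions, was not held fixed in them.

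Wider regions were split more often in every list. In B6-TgWT the split share rose from 0.903 percent of regions of 800 to 1200 bp to 3.55 percent at 1600 to 2000 bp and 15.4 percent at 3600 to 4000 bp. In B6-TgYF the same classes gave 0.927, 2.91 and 10.4 percent. In B6 they gave 0.134, 0.606 and 3.0 percent. B6 was the lowest of the lists in each of these width classes. The intervals of the transgenic lists overlapped in each of them.

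**Figure D1:**
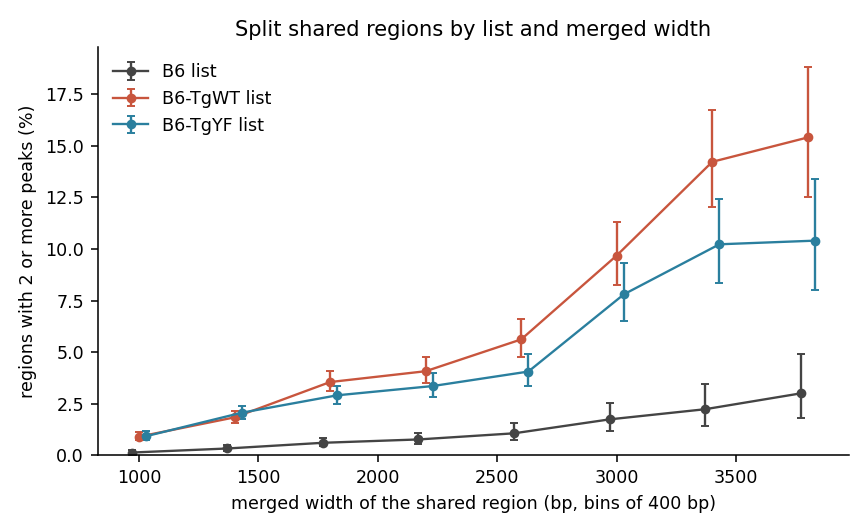
Share of shared regions (percent, vertical axis) that each list reports as 2 or more peaks, by merged width of the region in classes of 400 bp (horizontal axis). Points are the B6, B6-TgWT and B6-TgYF lists and bars are 95% Wilson intervals over regions; in the widest class the shares are 3.0, 15.4 and 10.4 percent.

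Strength behaved differently from width. Peaks were ranked within their own list by fold enrichment, so that the strongest peak of a list stands at percentile 100. In B6-TgWT the split share was 1.25 percent among regions whose strongest peak was in the lowest 20 percent of the list, 4.45 percent between percentiles 60 and 80, and 3.85 percent above 80. In B6-TgYF these classes gave 1.58, 3.31 and 2.69 percent. In B6 the share was highest in the middle, at 0.995 percent between percentiles 40 and 60, and was 0.330 percent above 80.

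Split regions had a median merged width of 2150 bp, against 1542 bp for the 28965 unsplit regions of the same range. Their median fold percentile, averaged over the 3 lists, was 65.3 against 62.3. Against unsplit regions weighted to the same distribution of widths, the order turned, with 65.3 in split regions and 79.7 in unsplit ones. The same held for the fold itself. In B6 the median was 14.09 in split regions and 21.44 in unsplit regions of matching width, in B6-TgWT 9.81 and 16.09, and in B6-TgYF 11.08 and 18.85. For their width, split regions were thus weaker than unsplit ones in every list. These medians describe the regions with no test, since part of the contrast lies in the rule.

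The kind of split also went with the width and strength of the region. Regions cut by B6-TgWT alone had a median width of 2222 bp and a median percentile of 70.3, and those cut by both transgenic lists had 2276 bp and 71.0. Regions cut by B6-TgYF alone had 1867 bp and 56.2. Regions cut by B6 alone had 2034.5 bp and 47.0, which was the lowest percentile of the 7 patterns. The 25 regions cut by all lists were the widest, with a median of 2976 bp, and had a median percentile of 53.0.

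The gaps were narrow. B6-TgWT had 1069 gaps with a median of 81 bp (quartiles 63 and 114), B6-TgYF had 893 with a median of 79 bp (63 and 115), and B6 had 187 with a median of 94 bp (64.5 and 140.5). Under 100 bp were 65.9 percent of the gaps in B6-TgWT, 67.1 percent in B6-TgYF and 52.9 percent in B6. Under 200 bp were 92.1, 92.5 and 84.0 percent. The distribution started at the 51 bp that was the narrowest distance anywhere in each list, so most gaps were close to the shortest that the lists hold. A gap took up a median of 4.36 percent of the stretch from the outer edge of the first part to that of the last in B6-TgWT, 4.51 percent in B6-TgYF and 5.10 percent in B6.

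**Figure D2:**
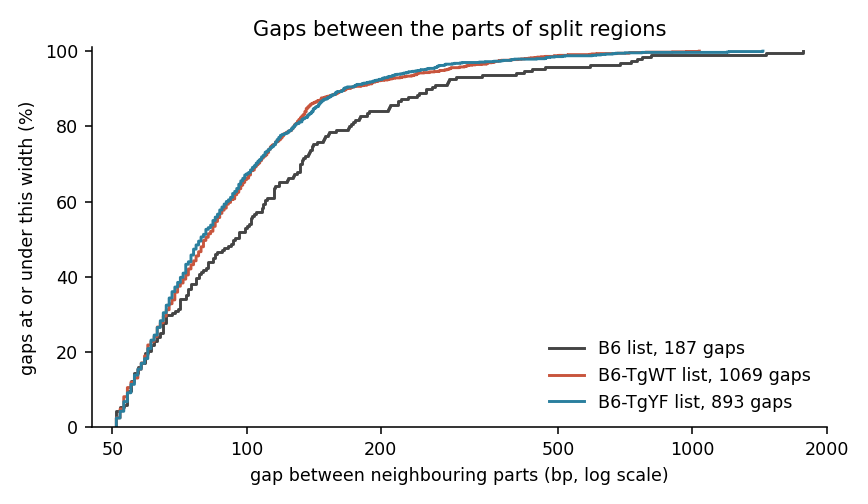
Cumulative share of gaps (percent, vertical axis) at or under a given width (bp, horizontal log axis), with 1 line for each list. The lines start at 51 bp and rise steeply, with medians of 81 bp in B6-TgWT, 79 bp in B6-TgYF and 94 bp in B6.

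The authors' lists number their peaks, and neighbouring parts mostly carried consecutive numbers. This was so for 183 of 187 gaps in B6 (97.9 percent), 1054 of 1069 in B6-TgWT (98.6 percent) and 875 of 893 in B6-TgYF (98.0 percent). In the other 4, 15 and 18 gaps at least 1 number was skipped. Those gaps were wider, with medians of 658.5, 610 and 501 bp.

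The parts were unequal in size. Nearly all splits were into 2 parts, in 183 regions of B6, 1022 of B6-TgWT and 859 of B6-TgYF. In these the narrower part had a median of 0.563 of the width of the wider one in B6-TgWT, 0.551 in B6-TgYF and 0.540 in B6. The quartiles were 0.381 and 0.760 (B6-TgWT), 0.388 and 0.777 (B6-TgYF), and 0.368 and 0.702 (B6). A typical B6-TgWT split set a part of 603 bp beside a part of 1235.5 bp. In B6 the medians were 619 and 1299 bp, and in B6-TgYF 595 and 1175 bp.

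The fold enrichments of the parts differed by a like amount. The weaker part had a median of 0.604 of the fold of the stronger one in B6-TgWT, 0.591 in B6-TgYF and 0.531 in B6. The median folds of the weaker and stronger parts were 4.56 and 9.32 in B6, 5.025 and 11.385 in B6-TgWT, and 4.78 and 10.62 in B6-TgYF. The weaker part was thus commonly below its list's median fold, and the stronger part above it. Both parts stood above their list's median in 30.7 percent of the B6-TgWT splits, 20.5 percent of the B6-TgYF splits and 11.5 percent of the B6 splits. The wider part was also the one of higher fold in 76.0 percent of splits in B6, 75.4 percent in B6-TgWT and 78.1 percent in B6-TgYF. The side made little difference, as the part with the lower coordinate was the stronger in 49.2, 47.8 and 44.7 percent.

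Splits into nearly equal parts were a minority. The weaker part reached 80 percent or more of the stronger one's fold in 16.9 percent of B6, 27.0 percent of B6-TgWT and 25.5 percent of B6-TgYF splits. It had under 25 percent in 12, 11.8 and 16.8 percent. The summits of the parts, where the signal was highest, lay a median of 765.5 bp apart in B6-TgWT, 764 bp in B6-TgYF and 1126 bp in B6. In the transgenic lists wider gaps went with more equal parts. The median fold ratio was 0.579 for B6-TgWT gaps of 51 to 75 bp and 0.641 for gaps above 150 bp, and in B6-TgYF it was 0.541 and 0.635. B6 showed no such order, with 0.537 and 0.542.

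**Figure D3:**
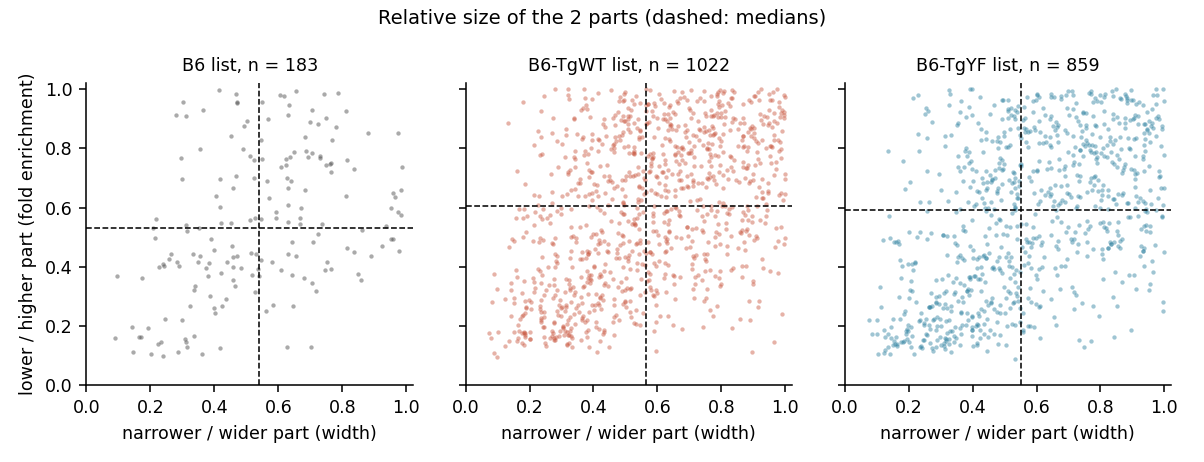
Relative size of the parts in regions that a list cut into exactly 2 peaks. Each point is a region, with the narrower over the wider part's width on the horizontal axis and the lower over the higher fold on the vertical axis, in 1 panel for each list. Dashed lines are medians; the median width ratios are 0.540, 0.563 and 0.551 and the median fold ratios 0.531, 0.604 and 0.591 in B6, B6-TgWT and B6-TgYF.

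Where both transgenic lists cut a region, they nearly always cut it at the same place. Both lists reported exactly 2 parts in 468 regions, and their gaps overlapped in 435 of them, or 92.9 percent (90.3 to 94.9). The centres of those overlapping gaps lay a median of 9 bp apart, with quartiles of 4 and 20.5 bp. The same side was the stronger part in both lists in 360 of 430 regions where the folds were unequal (83.7 percent). In B6 and B6-TgWT the gaps overlapped in 40 of 55 regions (72.7 percent), with centres a median of 63 bp apart. In B6 and B6-TgYF they overlapped in 31 of 48 (64.6 percent), with centres 68.25 bp apart. These B6 shares rest on far fewer regions, and their difference from that of the transgenic lists was not tested. The rule also enters, since overlapping gaps of a pair stay in a region only where the remaining list covers their common bases. For the pairs with B6 that list is a transgenic one, which cuts more often than B6, so the rule can lower their shares more.

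How often a single peak of another list bridged the gap differed between the pairs of lists. The merging itself needs the other lists to cover each gap between them, so where both transgenic lists cut at the same place B6 has to bridge, and the B6 shares are largely fixed by the rule. Where B6-TgWT cut a region into 2 and B6 had 1 peak, that peak covered the whole gap in 963 of 966 regions (99.7 percent). For B6-TgYF splits it did so in 806 of 810 (99.5 percent). B6-TgYF bridged 497 of 548 B6-TgWT splits (90.7 percent), but B6-TgWT bridged only 194 of 383 B6-TgYF splits (50.7 percent). Of the B6 splits, B6-TgYF bridged 111 of 130 (85.4 percent) and B6-TgWT 84 of 124 (67.7 percent). In the remaining regions the other list's peak lay on 1 side of the gap or ended inside it.

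The parts that had no counterpart followed the same lines. Of the parts in B6-TgYF splits, 11.2 percent (199 of 1769) met no B6-TgWT peak, while 0.226 percent met no B6 peak. Of the parts in B6 splits, 11.3 percent (42 of 372) met no B6-TgWT peak and 5.38 percent no B6-TgYF peak. Of the parts in B6-TgWT splits, 0.142 percent (3 of 2114) met no B6 peak and 2.55 percent no B6-TgYF peak. Within the split regions, parts without a counterpart were mostly parts of B6 and B6-TgYF splits that the B6-TgWT list lacked. The rule enters here too, since a part that a list lacks has to be joined to its region by the remaining list. These shares were not set beside those over all peaks of each list, so they describe the split regions only.

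The bridging peak had its summit within a part, not within the gap. Over all pairs of lists, 2655 of 2961 single peaks covered the whole gap, and in 6 of these (0.226 percent) the summit fell in the gap. It fell in the part of higher fold in 87.2 percent (2296 of 2632 with unequal folds). This share was 99.7 percent where the weaker part had under 0.5 of the stronger one's fold, 88.4 percent between 0.5 and 0.8, and 64.6 percent at 0.8 or more. The summit lay a median of 27 bp from the summit of the nearest part, with quartiles of 9 and 65 bp, and a median of 439 bp from the centre of the gap. The highest point of the bridging peak was therefore mostly close to that of a part. The same region enters these counts once for each pair of lists.

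**Figure D4:**
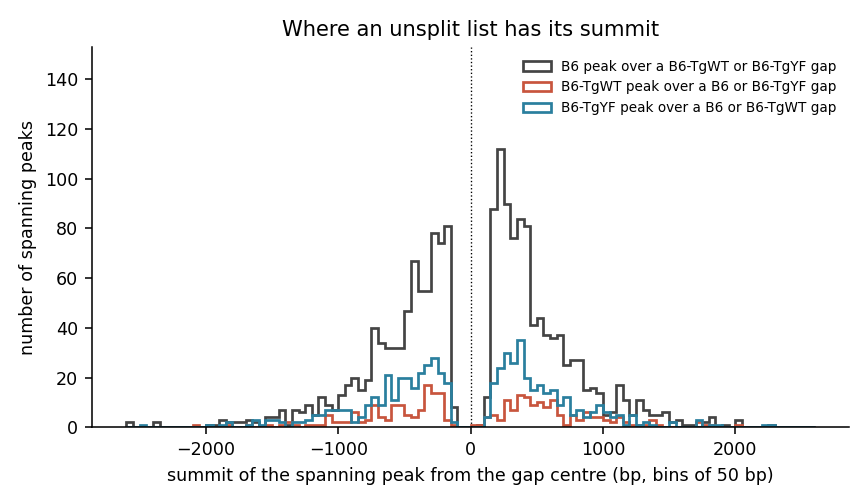
Position of the bridging peak's summit relative to the centre of the other list's gap (bp, horizontal axis; positive at higher coordinates), with the number of bridging peaks in bins of 50 bp on the vertical axis and 1 line for each bridging list. Of 2655 summits, counted once for each pair of lists, 6 lie in the gap. The median distance from its centre is 439 bp.

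The strongest split regions are described first. In 4 of the 5 the folds of the parts were less equal than the medians above. Positions are in mouse build mm9. Genes were not assigned, because the annotation tables used here are of another build. At chr2:73729078-73732499, the highest by mean percentile (99.7), B6 had 1 peak of 37.94-fold and B6-TgYF 1 peak of 35.8-fold. B6-TgWT had a part of 1499 bp with 32.85-fold and a part of 1409 bp with 20.06-fold, 68 bp apart. The summits of the strongest peaks lay within the first part, at 73730128 (B6), 73730154 (B6-TgWT) and 73730129 (B6-TgYF).

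The next regions had a strong part beside a much weaker one. At chr1:159341008-159343536 B6-TgWT had 33.51-fold and 8.73-fold parts 63 bp apart, where B6 had 1 peak of 37.58-fold. At chr10:42480151-42483662 the weak part of 7.87-fold came first, 86 bp before a part of 32.07-fold. At chr3:33698131-33700411 B6-TgYF had a 34.56-fold part of 1635 bp and a 3.64-fold part of 354 bp, 75 bp apart. The single B6-TgWT peak there, of 32.59-fold, ended at 33699798, within 2 bp of the end of the strong B6-TgYF part at 33699800, while the B6 peak ran on to 33700411.

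Both transgenic lists cut chr8:87209693-87212323. B6-TgWT had parts of 11.93-fold and 31.38-fold with a gap of 128 bp, and B6-TgYF had parts of 12.4-fold and 34.64-fold with a gap of 92 bp. The right-hand part was the stronger in both. B6 covered the stretch with 1 peak of 38.16-fold, whose summit at 87211554 lay in that right-hand part. The shortest gap, of 51 bp, occurred 22 times in B6-TgYF, 27 times in B6-TgWT and 8 times in B6. A B6-TgYF gap of this width was at chr13:107810994-107813419, which B6-TgWT also cut.

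The 3 strongest regions that B6 alone cut had a weak shoulder beside a strong peak. At chr7:52240697-52244015 its parts had 33.23-fold and 3.48-fold and lay 171 bp apart, and at chr11:106472786-106475857 they had 30.77-fold and 3.43-fold, 99 bp apart. At chr6:85910066-85912093 the weak part of 3.53-fold came first, 93 bp before one of 36.1-fold. The peaks of B6-TgWT reached 28.62-fold, 29.1-fold and 23.19-fold at these regions, and those of B6-TgYF 32.32-fold, 33.64-fold and 31.5-fold. At chr1:53408547-53409899 B6 and B6-TgWT made the same cut, with 4.69-fold and 36.69-fold parts 56 bp apart in B6 and 3.89-fold and 30.43-fold parts 59 bp apart in B6-TgWT. B6-TgYF had 1 peak of 35.3-fold there.

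The most equal parts by width were at chr16:42874135-42877641 in B6-TgWT, where both parts were 1446 bp wide and had 14.87-fold and 23-fold, 168 bp apart. In B6-TgYF they were at chr19:55717670-55718755, with both parts 493 bp wide and 8.1-fold and 3.64-fold, 59 bp apart. In B6 they were at chr16:70568535-70569514, with 464 and 457 bp and 3.9-fold and 5.29-fold. Equal width thus did not go with equal fold in these 3 regions.

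**Figure D5:**
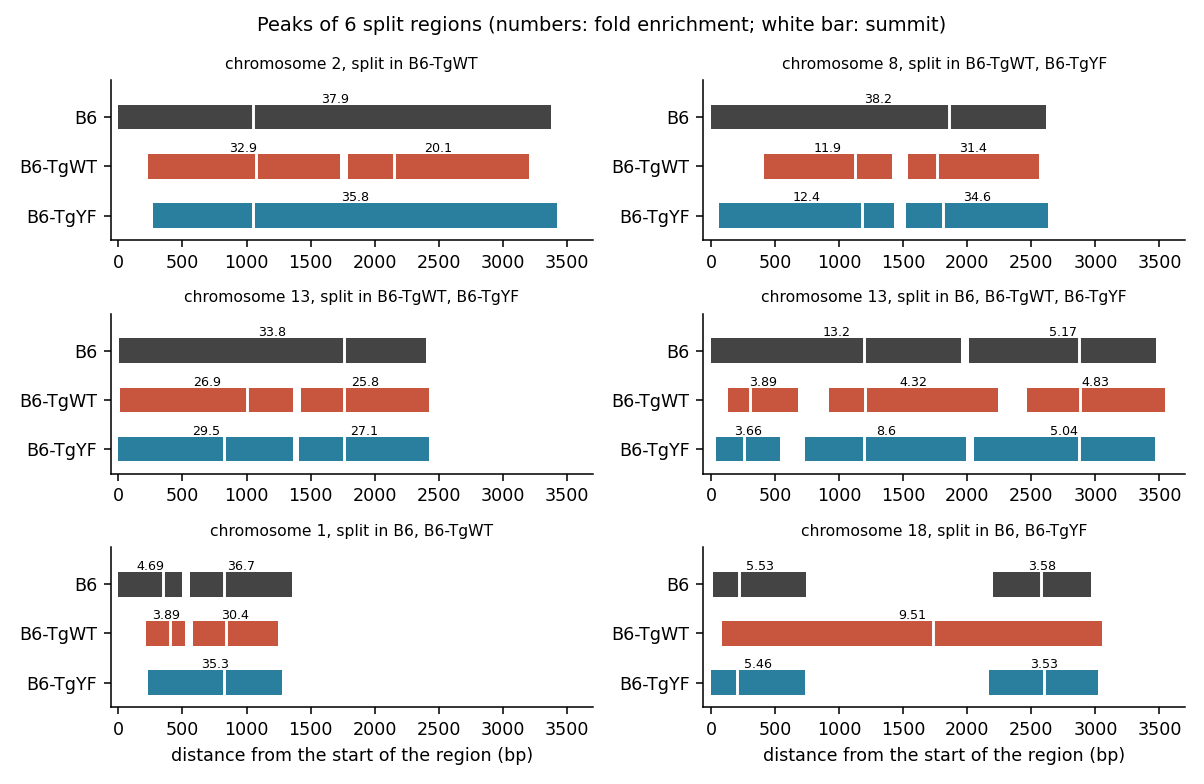
Peaks of the 3 lists in 6 split regions, drawn to scale as distance from the region's start (bp), with fold enrichments above the peaks and summits as white bars. The regions show a cut by B6-TgWT alone (gap 68 bp), cuts by both transgenic lists (128 and 92 bp, and a B6-TgYF gap of 51 bp in the other region), a region of 2, 3 and 3 parts, a cut by B6 and B6-TgWT (56 and 59 bp), and the widest B6-TgYF gap (1439 bp).

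More than 2 parts were rare. A list had 3 or more parts in 36 regions, some of them in more than 1 list, with 23 in B6-TgWT, 17 in B6-TgYF and 2 in B6. The B6 regions were chr4:136192426-136195481, with 24.38-fold, 3.82-fold and 6.91-fold parts, and chr7:31834237-31836548, with 3.96-fold, 3.59-fold and 8.05-fold parts. The first was the strongest of the 25 regions that all lists cut, and the second was chosen after its values were seen. The highest number in a list was 4, at chr14:122872946-122876801 in B6-TgWT, also chosen after its values were seen. Its parts had 4.66-fold, 5.88-fold, 16.17-fold and 15.13-fold with gaps of 63, 77 and 64 bp, where B6 had 1 peak of 22.87-fold and B6-TgYF 1 of 15.61-fold.

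The most parts over the 3 lists, 2 in B6 and 3 in each transgenic list, were at chr13:22086122-22089666 and chr2:65708749-65711374. At the first, B6 had 13.24-fold and 5.17-fold parts. B6-TgWT had 3.89-fold, 4.32-fold and 4.83-fold parts, and B6-TgYF 3.66-fold, 8.6-fold and 5.04-fold parts. B6-TgYF cut it at the place of the 62 bp B6 gap, with a gap of 58 bp, and once more in front. At the second, the B6 parts had 6.23-fold and 8.46-fold, and no transgenic part exceeded 5.54-fold.

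Few gaps were wide. Gaps of 500 bp or more numbered 34, in 27 regions, with 13 in B6-TgWT, 13 in B6-TgYF and 8 in B6. In each list some of them had a skipped peak number, since the gaps with skipped numbers had medians above 500 bp. The classes of gap width used here were chosen after the values were seen. A single B6-TgWT peak bridged 8 of the 8 wide B6 gaps, and a single B6-TgYF peak bridged 2 of them. B6 bridged 12 of the 13 wide B6-TgWT gaps and 7 of the 13 wide B6-TgYF gaps. Among B6 gaps under 100 bp, B6-TgWT bridged 52 of 99 with a single peak and B6-TgYF 78 of 99. From 100 to under 200 bp they bridged 36 and 37 of 58, and from 200 to under 500 bp 7 and 14 of 22. B6-TgWT bridged more than B6-TgYF in the widest class alone, which rests on 8 gaps. The merging needs the other lists to cover each gap between them, so these counts are partly fixed by the rule.

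The widest gap of all, of 1768 bp, was in B6 at chr11:61485070-61488851. Its B6 parts of 433 and 1380 bp had 3.68-fold and 7.08-fold. B6-TgWT had 1 peak over the full 3782 bp with 9.56-fold, and B6-TgYF had 1 peak of 1206 bp with 7.98-fold. The B6 parts at this gap carried consecutive peak numbers. The widest B6-TgWT gap, of 1036 bp, was at chr3:57468639-57471592 between parts of 6.7-fold and 4.74-fold, and B6-TgYF had a gap of 671 bp there. A peak number was skipped in both, with parts numbered 66415 and 66417 in B6-TgWT and 58689 and 58691 in B6-TgYF. B6 covered that stretch with 1 peak of 2922 bp and 8.54-fold.

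The 6 cases of a summit in another list's gap, counted once for each pair of lists, all came from B6-TgWT peaks. They lay in 4 regions chosen after their values were seen, each with 1 B6-TgWT peak. At chr18:20971755-20974802 B6 had parts of 5.53-fold and 3.58-fold with 1461 bp between them, and B6-TgYF had parts of 5.46-fold and 3.53-fold with 1439 bp between them, its widest gap. B6-TgWT had 1 peak of 9.51-fold with its summit in both gaps. At chr17:45860659-45864034 B6 had 12.28-fold and 3.32-fold parts 769 bp apart and B6-TgYF 11.82-fold and 3.87-fold parts 1209 bp apart. The B6-TgWT peak of 11.77-fold there had its summit at 45863047, in both gaps. At chr3:72851432-72853843 B6 had parts of 4.56-fold and 4.9-fold 468 bp apart, and the B6-TgWT peak had 7.78-fold. At chr7:89156655-89159694 B6-TgYF had parts of 4.71-fold and 4.86-fold 706 bp apart, and the B6-TgWT peak had 9.68-fold. In these 4 regions B6-TgWT thus had its highest signal where another deposited list held no peak. At chr17:45860659-45864034 a peak number was skipped between the B6-TgYF parts, numbered 41440 and 41442. The B6 parts there carried consecutive numbers, 37969 and 37970.

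The limits on width set the ends of the group. The narrowest split regions inside them were 806, 808 and 812 bp wide, and the nearest ones left out below were 791, 781 and 776 bp. The widest inside were 3998, 3992 and 3989 bp, and the nearest left out above were 4005, 4006 and 4012 bp. In all, 11 of 3684 shared regions of 800 bp or less were split (0.299 percent), as were 285 of 799 of 4000 bp or more (35.7 percent, 32.4 to 39.1).

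A gap present in all 3 lists at the same place is not among these regions, because nothing then joins the parts. Adjacent shared regions at most 100 bp apart numbered 544, and 441 of these pairs had a joint width above 800 and under 4000 bp. At most 200 bp apart were 979 pairs, 779 of them in that range. In the 25 regions cut by all lists, the gaps of the 3 lists thus had no base in common.

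Split regions lay on every chromosome from 1 to 19. The split share ran from 3.97 percent on chromosome 3 to 6.05 percent on chromosome 7. Their nearest other region was a median of 6247 bp away, against 7514 bp for unsplit regions, and another region lay within 200 bp of 9.42 percent (8.05 to 11.0) against 6.65 percent. A region found only in B6-TgWT lay within 5000 bp of 4.84 percent of split and 4.84 percent of unsplit regions.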

How the data were processed

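Whole testis H3K4me3 ChIP-seq from 3 mouse lines was analysed from 1 deposited peak list per line. CASAVA, Bowtie2, BWA and MACS2 are named in the submitters' processing notes, with build mm9. The sources used here do not state versions, roles, the peak cutoff or how the 2 libraries of a line were combined. Each deposited list of 10 columns holds, per peak, a score, a fold enrichment (a ratio over background), a −log10 p, a −log10 q and a summit offset, all as the authors' caller gave them. The deposited score and −log10 p were not used.

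Peaks were merged and compared with pandas 2.3.3 and numpy 2.4.6 in Python 3.11.15, intervals with scipy 1.17.1, and figures were drawn with matplotlib 3.10.9. A gap is the number of bases between neighbouring peaks of a list in a region. Width and fold ratios were taken in regions with exactly 2 parts. Unsplit regions were weighted to the split regions' widths in bins of 200 bp. The merging code was checked on deposited peaks of unsplit regions, with gaps cut in where another list covered them. There 200 of 200 planted splits were recovered with 0 false. Both values follow from that setup, so the check covers the working of the code only. No test was made, since each line has 1 list. Shares carry 95% Wilson intervals.

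Regions named are the 5 highest by mean fold percentile, the 3 highest of each pattern of splitting lists, the widest gap, a narrowest gap (1 of several ties) and the most equal parts of each list, those with most parts, and those at the width limits. Others are said to be chosen after their values were seen. The group of regions and all choices here were made with earlier results of these data known. Genes and sequences were not used, as the annotation tables at hand are of build GRCm38 and the lists of mm9.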

Additional observations from a re-analysis of the deposited data

Results flagged for a closer look

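Chromosome X lies outside the rule. It held 58 split regions among 700 shared regions wider than 800 bp and narrower than 4000 bp, or 8.29 percent (95% Wilson interval 6.46 to 10.6). B6-TgWT cut 48 of them, B6-TgYF 35 and B6 none (0 of 700, which allows a share of up to 0.429 percent, for counting error only). The median gap was 79.5 bp in B6-TgWT and 80 bp in B6-TgYF, and the median width was 2362 bp in split and 1641 bp in unsplit regions. This signal is listed because the regions of the results leave out chromosome X. Its peaks did enter the ranking behind the fold percentiles, and 1 of the other settings below adds its regions.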

How the results depend on the processing

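The 19 results were recomputed under 11 other settings, which gave 189 values. Of these, 140 stayed within the interval or within 1.5 times the count and 49 moved. A change of direction was not checked for. B6-TgWT cut the most regions and B6 the fewest in each of the 10 settings that recount the splits; the other one changes the measure of strength alone. Joining peaks of a list at most 100 bp apart left 994 split regions (3.28 percent), 114 by B6 and 625 by B6-TgWT, with median gaps of 149.5, 133 and 132.5 bp in B6, B6-TgWT and B6-TgYF, a median percentile of 58.9 and 85.0 percent of bridging summits in the stronger part. Joining up to 200 bp left 440 (1.46 percent), 298 by 1 list only and 70, 271 and 244 by list. Gaps were then 320, 274 and 264.5 bp, width ratios 0.644, 0.596 and 0.587, the percentile 56.7, stronger-part summits 80.4 percent and summits in the gap 1.19 percent. These gaps move by construction.

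Keeping peaks with −log10 q of at least 20 left 809 (3.19 percent), 487 by 1 list only and 82, 605 and 457 by list, with gaps of 77 bp in B6-TgWT and 72 bp in B6-TgYF. Width ratios were 0.630, 0.616 and 0.593, the B6-TgYF fold ratio 0.624, the percentile 73.4 and summits in the gap 0 percent. Without the weakest 10 percent of each list the split share was 4.48 percent, the B6-TgYF gap 75 bp, the percentile 68.3 and summits in the gap 0.0937 percent. With lists of equal length (41558 peaks) it was 4.72 percent, with 107 by B6 and a percentile of 67.7. Without peaks narrower than 300 bp it was 4.65 percent. With widths from 600 to 5000 bp the percentile was 67.7. With no width limit it was 70.0, with 97.4 percent of peak numbers consecutive. The cause of these moves was not tested. No paired analysis was possible because a single list stands for both libraries of a line, and for the same reason leaving out a replicate was not run. Depth is unknown, and the precision of a gap is limited by the caller's joining distance, which the sources used here do not give.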
